A study of Mus musculus with 6 samples.

Results

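The genes described here encode the enzymes and regulators that remove reactive oxygen species in germinal vesicle (GV) oocytes, the fully grown mouse female germ cells arrested at prophase of meiosis. The set was a list of 38 gene symbols covering superoxide dismutases, peroxiredoxins, the thioredoxin and glutathione systems and the axis of the transcription factor NRF2. All 38 were found in the deposited table of 25353 genes. RNA was sequenced from 3 libraries labelled KO and 3 wild-type (WT) libraries, each prepared from 5 pooled oocytes of C57BL/6J mice. The labels disagree on the KO genotype, since the series text names Mfn2-/- and the sample fields name Mfn1-/-. They also disagree on age, since the protocol gives 8 weeks and the age field of both groups gives P1. No promoter, Cre driver or further allele is named for either group, and nothing ties a pool of oocytes to its own mouse, so p-values measure the spread between these pools. In such pooled samples, fewer cells of a type and less RNA per cell cannot be told apart.

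Superoxide dismutases turn superoxide into hydrogen peroxide, which catalase, peroxiredoxins and glutathione peroxidases then reduce. Peroxiredoxins are recharged by thioredoxin and thioredoxin reductase, and glutathione peroxidases by glutathione, a tripeptide made in consecutive steps by glutamate-cysteine ligase and glutathione synthetase and kept reduced by glutathione reductase. NRF2 (encoded by Nfe2l2) activates many of these genes through antioxidant response elements in their promoters, and KEAP1 with the ubiquitin ligase scaffold CUL3 keeps NRF2 low in unstressed cells. Oocytes hold many mitochondria and store transcripts for the embryo, and their peroxide defence is often studied in connection with egg quality.

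Between 6583404 and 7615374 reads were assigned to genes in the KO libraries and between 6450191 and 7992598 in the WT libraries. Values are normalized read counts, in which 1 read is worth 0.899 to 1.11. Mfn2 had 5.25, 5.28 and 4.50 normalized counts in KO and 25.5, 38.1 and 32.3 in WT, a log2 difference of -2.44 (SE 0.38, limma adjusted p = 0.00487), whereas Mfn1 had 398, 382 and 379 in KO and 363, 298.5 and 360 in WT (log2 fold change 0.19, adjusted p = 0.482), so it was Mfn2 and not Mfn1 that was low in the libraries labelled KO. Over all 18762 genes tested, 351 were called higher and 264 lower in KO at an adjusted p under 0.05, and 295 and 334 when trends on GC content and transcript length were removed. Oocyte markers were high throughout, with 14 of 14 in the table. Their summed level was 149394, 173646 and 189668 in KO replicates 1 to 3, and 189308 to 218697 in WT. Without KO replicate 1, the library with the lowest sum, 459 of all genes were called higher and 430 lower. The oocyte markers Zar1 and Nlrp5 fell in KO. Each was still called in 3 of the 6 limma fits that left out 1 library. The adjusted p of Zar1 reached 0.0604 without WT replicate 1. That of Nlrp5 was 0.159 without WT replicate 1 and reached 0.166 without WT replicate 3. Among granulosa markers, 14 of 14 were in the table with a sum of 2740 to 3370 in KO and 2877 to 3656 in WT, of which most came from Serpine2. Amh, Foxl2 and Amhr2 had at most 3 reads in any library, but Cyp19a1 had 288 to 335 reads in KO and 327 to 482 in WT, Inha had 27 to 112 in KO and 154, 36 and 45 in WT replicates 1 to 3, and 7 of the 14 were highest in WT replicate 1. Of 10 markers of steroid-producing theca and luteal cells, 7 were in the table, with a sum of 127 to 226 in KO and of 2104, 172 and 507 in WT replicates 1 to 3. Most of the sum in KO and in WT replicate 2 came from Scarb1, which had 112, 157 and 170 in KO and 201, 152 and 181 in WT. Of 10 stromal markers, 7 were in the table, with a sum of 8.09 to 11.6 in KO and of 172, 31.6 and 28.6 in WT replicates 1 to 3. The steroidogenic genes Cyp11a1 and Lhcgr and the stromal gene Dcn fell in KO. With 1 library left out, Cyp11a1 was still called in 5, Lhcgr in 2 and Dcn in 3 of the 6 limma fits. The limma adjusted p reached 0.0782 for Cyp11a1 and 0.141 for Lhcgr without WT replicate 3. For Dcn it reached 0.114 without WT replicate 1. The collagen genes Col1a2 and Col3a1 had 0 reads in all KO libraries and in WT replicates 2 and 3, and 7 reads each in WT replicate 1. The immune markers other than C1qb summed to 8.45 to 14.4 in KO and to 85.4, 22.3 and 38.8 in WT replicates 1 to 3. WT replicate 1 was the highest library in the steroidogenic and stromal lists and in the immune list without C1qb. C1qb went the other way, with 592, 469 and 453 normalized counts in KO and 364, 430 and 331 in WT. With C1qb the immune list summed to 468 to 603 in KO and 370 to 452 in WT. The KO sums without C1qb came from Cd68 alone.

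The response element that NRF2 binds has the core TGACNNNGC, and the promoters of 3 members that return below are shown for where this core lies in them. RefSeq lists 3 starts for Txnrd1; the one shown was chosen because it alone holds the core, and it lies downstream of the first annotated start, whose window (chr10:82833701-82834000) holds none. The sequences are from RefSeq (GRCm38.p6), cover 250 bases before to 50 bases after an annotated start, run 5′ to 3′ on the strand of the gene, and carry the core in capitals where it occurs on either strand. The Prdx1 window is chr4:116685349-116685648 (plus strand), the Txnrd1 window shown chr10:82858956-82859255 (plus strand) and the Prdx5 window chr19:6910057-6910356 (minus strand).
Prdx1: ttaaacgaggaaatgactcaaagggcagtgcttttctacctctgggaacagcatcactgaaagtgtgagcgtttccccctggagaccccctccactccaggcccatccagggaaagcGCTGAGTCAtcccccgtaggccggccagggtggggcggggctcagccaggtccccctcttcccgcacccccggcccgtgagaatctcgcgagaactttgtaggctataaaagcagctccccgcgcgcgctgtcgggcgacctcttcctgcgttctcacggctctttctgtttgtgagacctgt
Txnrd1: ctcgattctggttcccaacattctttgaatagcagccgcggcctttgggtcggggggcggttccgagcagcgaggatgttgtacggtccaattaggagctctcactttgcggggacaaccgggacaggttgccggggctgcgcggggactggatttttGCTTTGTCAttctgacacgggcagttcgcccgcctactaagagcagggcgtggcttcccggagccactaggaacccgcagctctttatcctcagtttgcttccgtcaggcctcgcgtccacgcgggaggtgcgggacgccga
Prdx5: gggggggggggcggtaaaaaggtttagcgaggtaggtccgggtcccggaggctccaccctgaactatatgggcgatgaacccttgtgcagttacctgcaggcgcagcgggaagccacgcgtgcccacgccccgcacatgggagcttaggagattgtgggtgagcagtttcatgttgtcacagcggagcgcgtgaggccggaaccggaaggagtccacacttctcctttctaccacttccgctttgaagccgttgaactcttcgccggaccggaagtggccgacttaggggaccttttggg
The match began at position -133 from the start in Prdx1 and at -92 in Txnrd1, both on the strand opposite to the gene, and the Prdx5 window held none. A promoter was matched by symbol for 33 of the 38 members, and 6 of these (18.2%) held the core, namely Sod1, Prdx1, Srxn1, Txnrd1 (in 1 of 3 windows), Gclm and Nfe2l2. Across all 27025 genes of the RefSeq table the share was 14.0%, so the members lay near the background. A match is a run of letters and not a measured binding site.

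The oocyte transcripts of peroxide defence were very unequal in level. Per kb of exon, over the 6 libraries, 3 members ranked within the top 1% of 16586 protein-coding genes, 12 within the top 10% and 11 below the middle of the ranking. Glrx (glutaredoxin 1, a cytosolic enzyme that removes glutathione from protein thiols) ranked 38th at 9483 normalized counts per kb. Prdx2 and Prdx1, cytosolic peroxiredoxins that reduce hydrogen peroxide, ranked 60th and 90th at 6561 and 4886 per kb. These 3 genes together held 34584 to 37027 of the 49501 to 51435 normalized counts of all 38 members in KO, and 38192 to 40874 of 53522 to 57559 in WT. Sod1, Glrx5 and Txnip followed at 1159, 1081 and 1050 per kb. At the other end, 6 members averaged under 10 reads a library: the extracellular dismutase Sod3, catalase (Cat), sulfiredoxin (Srxn1), the mitochondrial thioredoxin reductase Txnrd2, the endoplasmic reticulum peroxidase Gpx8 and the inducible haem oxygenase Hmox1.

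**Figure D1:**
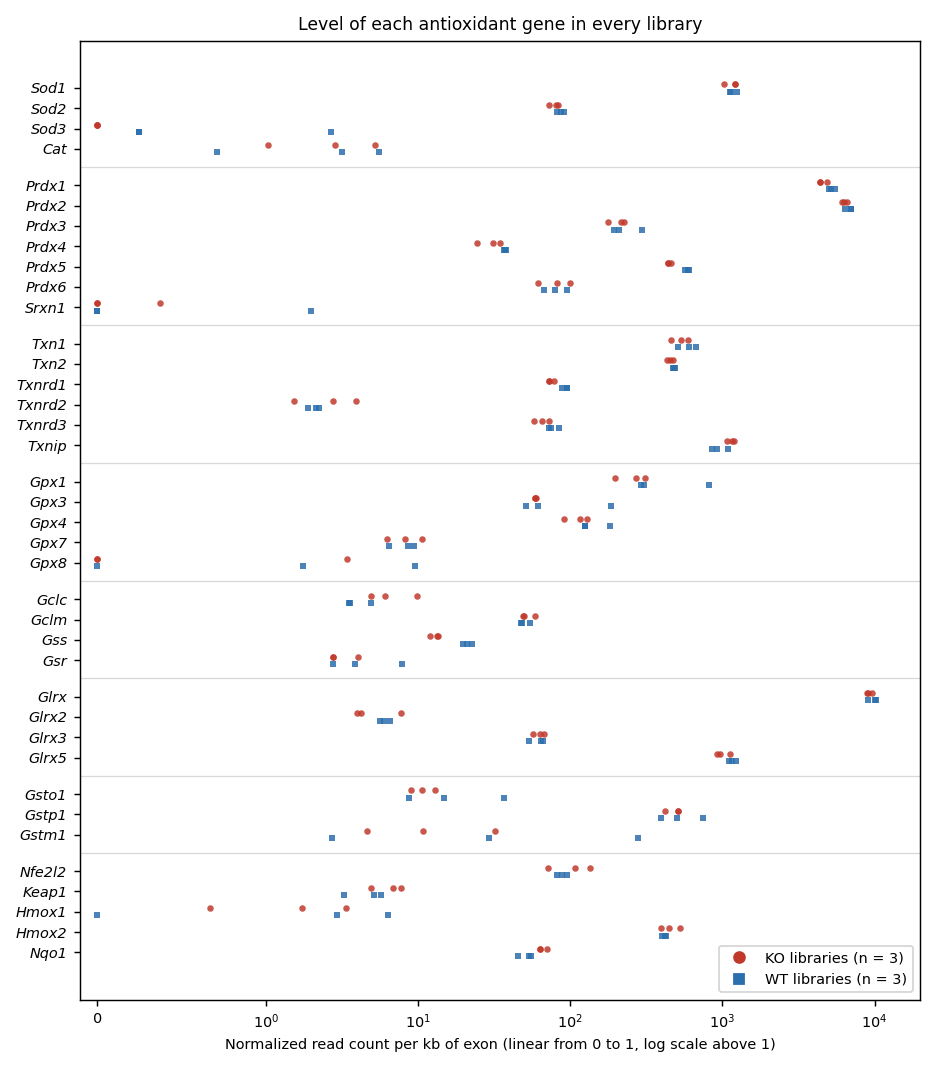
Normalized read count per kb of exon (x axis, linear from 0 to 1 and logarithmic above 1) of the 38 members (rows, grouped by role), with each KO library as a circle and each WT library as a square (n = 3 each). Glrx, Prdx1 and Prdx2 lie farthest to the right in every library, while Srxn1, Sod3, Txnrd2, Gpx8 and Hmox1 have the lowest means, 0.391 to 2.51 per kb.

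No member passed the test between KO and WT. Of the 38 genes, 36 had a normalized count of at least 1 in 3 libraries and were tested, and 0 of the 36 had an adjusted p under 0.05 in limma, against 3.28% of all genes. At an unadjusted p under 0.05 there were 5 members (Prdx5, Txnrd1, Gss, Gpx1 and Txnip), or 13.9%, where 18% of all genes reached it. The count tests edgeR and DESeq2 each called 1 member, Prdx5, lower in KO, against 6.03% and 7.79% of all genes that they tested. The median log2 fold change of the members was -0.14 and 24 of 36 lay below 0, beside a median of -0.01 and 51.3% below 0 over all genes. Without WT replicate 1 the members' median was -0.04 and 18 of 35 lay below 0, beside -0.02 and 51.8% over all genes. All 3 KO libraries lay on 1 side of all 3 WT libraries for 7 of the 36 members (19.4%), against 23.2% of all genes.

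The precision differed widely between members. For 24 of the 36 the 95% interval of the difference lay within a 2-fold change in either direction, and for 17 within 1.5-fold, so changes past those sizes lie outside the intervals of these genes. For the other 12, Gstm1, Gpx8, Hmox1 and Cat with the widest intervals among them, a 2-fold difference in at least 1 direction lay inside the interval.

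**Figure D2:**
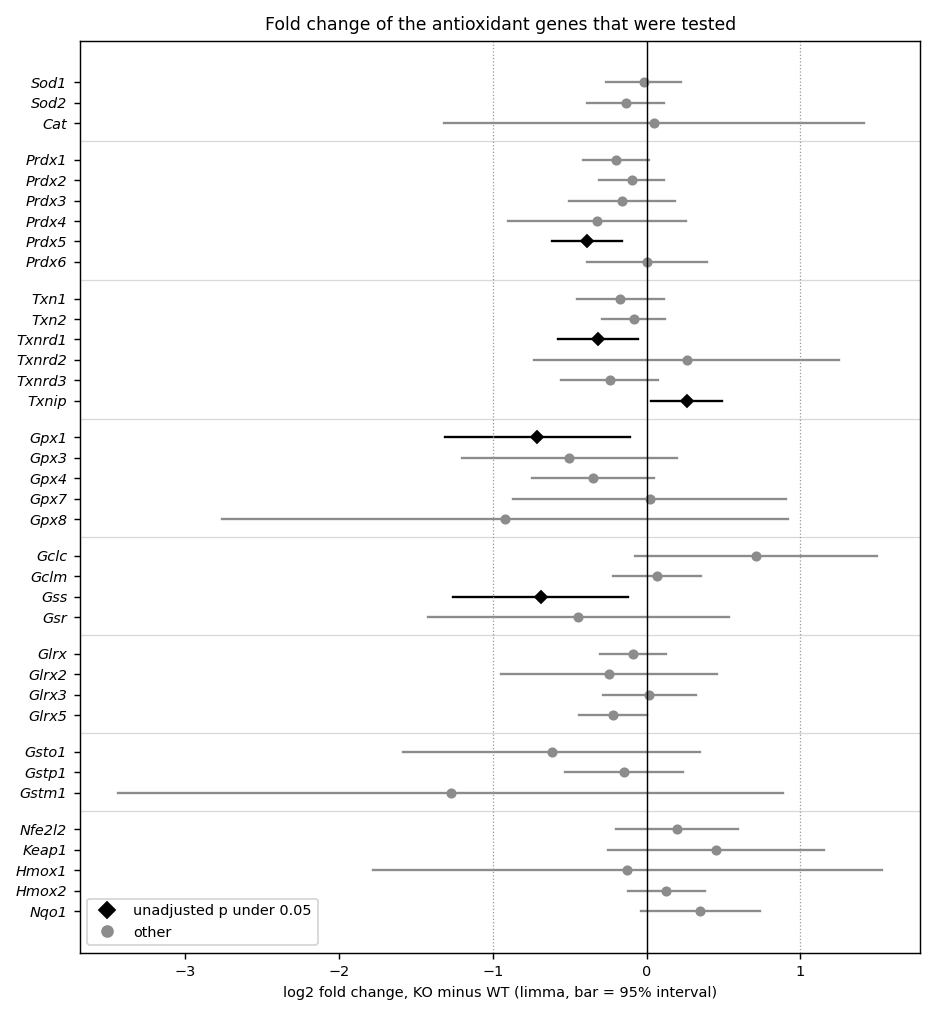
Log2 fold change of the 36 tested members, KO minus WT (x axis), with 95% intervals from limma as bars, grouped by role; dotted lines mark 2-fold. Prdx5, Txnrd1, Gss, Gpx1 and Txnip, drawn as black diamonds, had unadjusted p-values under 0.05 and adjusted p-values of 0.0549 to 0.213.

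Superoxide dismutases and catalase overlapped between the groups wherever they were tested. Sod1, the copper and zinc enzyme of the cytosol, had 778, 780 and 658 normalized counts in KO and 727, 796 and 717 in WT. The groups overlapped, and the log2 fold change was -0.02 (95% interval -0.26 to 0.22). Its value was 0.12 with GC and length trends removed. Sod2, the manganese enzyme of the mitochondrial matrix, had 484, 469 and 426 in KO and 530, 477 and 509 in WT (log2 fold change -0.14, -0.39 to 0.11). Catalase, the peroxisomal enzyme that splits hydrogen peroxide, rested on 13, 7 and 3 reads in KO and on 13, 2 and 9 reads in WT, and its log2 fold change was 0.05 (-1.32 to 1.42), and 0.58 without WT replicate 1. Sod3 had 0 reads in each KO library, which allows up to 3 reads or 0.394 to 0.456 CPM (counts scaled to the library total), and 9, 1 and 1 in WT replicates 1 to 3. It did not enter the test.

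Among peroxiredoxins, Prdx5 came closest to the threshold. It encodes a peroxiredoxin found in mitochondria, peroxisomes and the cytosol (chromosome 19, 6906697 to 6910106, minus strand, GRCm38). Prdx5 had 639, 637 and 667 normalized counts in KO and 818, 869 and 855 in WT. Every KO library lay below every WT library, by more than the spread within either group. The means were 648 ± 17.0 in KO and 848 ± 26.3 in WT (SD, n = 3 each), and the log2 difference was -0.39 (SE 0.11, 95% interval -0.61 to -0.16, adjusted p = 0.0549 in limma). The adjusted p was 0.04 in edgeR and 0.0172 in DESeq2, and over all alternatives it lay between 0.0172 and 0.176. Leaving out a library gave log2 fold changes of -0.41 to -0.37, and the adjusted p was 0.0455 without KO replicate 1. Prdx5 overlaps Trmt112 on the other strand, with which it shares 12.7% of its 75-base windows, and the reads of such partners cannot be told apart because the library kit keeps no strand. Trmt112 itself had 751, 842 and 870 in KO and 790, 940 and 851 in WT (log2 fold change -0.07).

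The abundant peroxiredoxins differed less. Prdx1 had 12437, 11143 and 11123 normalized counts in KO and 14027, 13183 and 12673 in WT, which did not overlap (log2 fold change -0.20, -0.42 to 0.01, adjusted p = 0.314). Prdx2 had 12305, 11688 and 11269 in KO and 12897, 13008 and 11813 in WT, which overlapped (-0.10, -0.31 to 0.11). The 95% intervals of both lay within 1.5-fold. Prdx1 and Prdx2 share 15.7% and 25.8% of their windows with processed copies or overlapping genes. Prdx3, the mitochondrial matrix peroxiredoxin, had 261, 333 and 319 in KO and 436, 308 and 288 in WT, and its log2 fold change of -0.16 was 0.02 without WT replicate 1. Prdx4, which acts in the endoplasmic reticulum, had 24.2, 30.6 and 34.2 in KO and 37.7, 36.3 and 36.9 in WT, without overlap (-0.32, -0.90 to 0.26). Prdx6, the peroxiredoxin that uses glutathione, had 154, 249 and 206 in KO and 237, 168 and 198 in WT (0.00, -0.39 to 0.39). Srxn1, which repairs over-oxidized peroxiredoxins, had at most 5 reads in a library and was not tested.

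The thioredoxin system held 2 of the 5 members with an unadjusted p under 0.05. Txnrd1, the cytosolic thioredoxin reductase (chromosome 10, 82833951 to 82897712, plus strand), had 295, 319 and 294 normalized counts in KO and 386, 359 and 387 in WT. All KO libraries lay below all WT libraries, with means of 303 ± 14.1 in KO and 377 ± 15.9 in WT (SD, n = 3 each). The log2 fold change was -0.32 (SE 0.12, -0.58 to -0.06), and the adjusted p was 0.18 in limma, 0.139 in edgeR and 0.177 in DESeq2. Txnip, a protein that binds thioredoxin and limits glucose uptake (chromosome 3, 96557957 to 96561883, plus strand), had 3043, 3275 and 3370 in KO and 2426, 2615 and 3079 in WT. WT replicate 3 lay above KO replicate 1, so the groups overlapped. The log2 fold change was 0.26 (SE 0.11, 0.03 to 0.49, adjusted p = 0.213). Txnip shares 17.1% of its windows with Gm15441 on the other strand, which had a log2 fold change of 0.06. Thioredoxin itself (Txn1) had 624, 559 and 484 in KO and 709, 635 and 534 in WT, and mitochondrial thioredoxin (Txn2) had 1845, 1768 and 1692 in KO and 1834, 1877 and 1910 in WT. Both overlapped between groups, with log2 fold changes of -0.17 and -0.08, and of -0.075 and -0.10 without WT replicate 1. Txnrd3, a reductase that also handles glutathione, had 207, 164 and 186 in KO and 238, 205 and 213 in WT (-0.24, -0.55 to 0.08). Txnrd2 had 5, 9 and 15 reads in KO and 7, 7 and 8 in WT.

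Among glutathione peroxidases and glutathione S-transferases, 4 of 5 and 3 of 3 genes had their highest value in WT replicate 1, with Gpx7 the exception. Gpx1, the cytosolic and mitochondrial glutathione peroxidase (chromosome 9, 108338903 to 108340343, plus strand), had 212, 291 and 330 normalized counts in KO and 876, 327 and 312 in WT replicates 1 to 3. KO replicate 3 lay above the 2 lower WT libraries. The log2 fold change was -0.71 (SE 0.28, -1.31 to -0.11, adjusted p = 0.192) and it was -0.23 without WT replicate 1. Gpx3, the secreted peroxidase, had 94.5, 94.0 and 93.5 in KO and 297, 81.8 and 97.9 in WT (-0.50, and 0.07 without WT replicate 1). Gpx4, which reduces lipid hydroperoxides in membranes, had 165, 148 and 116 in KO and 232, 158 and 160 in WT (-0.35, and -0.17 without WT replicate 1). Of the windows of Gpx4, 67.6% match annotated copies such as Gpx4-ps2, so its counts are uncertain. Gpx7, a peroxidase of the endoplasmic reticulum, had 13, 10 and 9 reads in KO and 10, 13 and 9 in WT, and Gpx8 had 0, 0 and 4 in KO and 9, 0 and 2 in WT.

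The transferases attach glutathione to other molecules, and all 3 were highest in WT replicate 1. Gstp1 had 343, 422 and 418 normalized counts in KO and 613, 412 and 325 in WT (log2 fold change -0.15, and 0.10 without WT replicate 1), and 63.3% of its windows are shared with Gstp2 and Gstp-ps. Gstm1 had 14.7, 6.34 and 44.1 in KO and 381, 3.72 and 39.7 in WT. Its log2 fold change was -1.27 (-3.44 to 0.89), and it was 0.32 without WT replicate 1, with 34.7% of windows shared with Gstm3 and pseudogenes. Gsto1, an omega class transferase, had 12.6, 10.6 and 15.3 in KO and 43.2, 10.2 and 17.5 in WT (-0.62, and -0.08 without WT replicate 1). Of the 36 tested members, 17 had their highest value in WT replicate 1. This was a larger share than the 3198 of all 18762 genes tested (17%) that were highest in WT replicate 1. This is the library in which steroidogenic and stromal markers and the immune markers other than C1qb were highest, with sums of 2104, 172 and 85.4. C1qb was higher in every KO library than in any WT library. The part of steroidogenic, stromal and immune cells in the values of Gpx1, Gpx3 or the transferases was not tested.

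**Figure D3:**
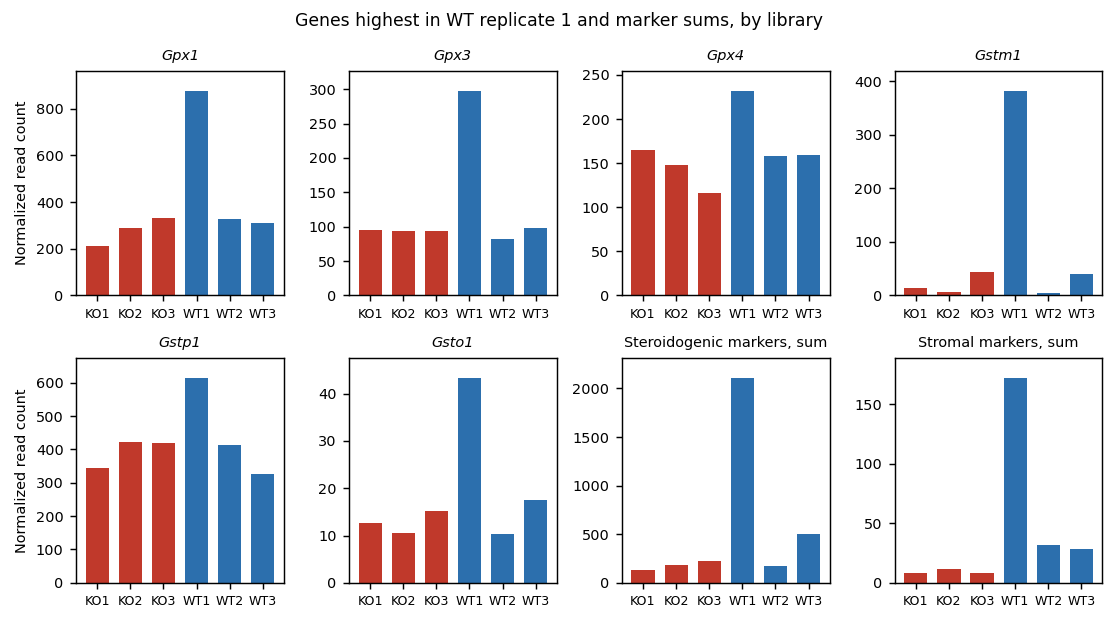
Normalized read counts (y axes, from 0) of 6 glutathione peroxidases and transferases and the summed counts of the steroidogenic and stromal marker lists in the 3 KO (left, red) and 3 WT (right, blue) libraries. In each panel WT replicate 1 (WT1) is the highest bar, with 876 for Gpx1, 381 for Gstm1 and 2104 for the steroidogenic markers.

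Genes of glutathione synthesis and reduction lay at low to moderate levels and in both directions. Gss, glutathione synthetase (chromosome 2, 155563181 to 155592810, minus strand), had 26.3, 26.4 and 23.4 normalized counts in KO and 41.0, 44.6 and 38.8 in WT. The highest KO library lay well below the lowest WT library, and the means were 25.4 ± 1.71 in KO and 41.5 ± 2.95 in WT (SD, n = 3 each). The log2 fold change was -0.69 (SE 0.27, -1.26 to -0.12) with an adjusted p of 0.181 in limma, 0.121 in edgeR and 0.278 in DESeq2, from 25 to 26 reads in KO and 37 to 48 in WT. Gss overlaps exons of Acss2 and of the antisense models Gssos1 and Gssos2. Gclc, the catalytic subunit of glutamate-cysteine ligase, had 33.6, 16.9 and 20.7 in KO and 12.2, 16.7 and 12.0 in WT, with KO replicate 2 only just above WT replicate 2 (0.71, -0.07 to 1.50, adjusted p = 0.332). These values rest on 32, 16 and 23 reads in KO and 11, 18 and 13 in WT. Leaving out a library gave log2 fold changes of 0.44 to 0.92 for Gclc. Gclm, the modifier subunit of this ligase, had 279, 329 and 272 in KO and 266, 269 and 304 in WT, with overlap (0.07, -0.22 to 0.35). Glutathione reductase (Gsr) had 7, 7 and 12 reads in KO and 19, 11 and 8 in WT (-0.44, and -0.05 without WT replicate 1).

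Glutaredoxins overlapped between the groups, with narrow intervals where they were abundant. Glrx had 12285, 13183 and 12192 normalized counts in KO and 13950, 12410 and 13707 in WT, with overlap (log2 fold change -0.09, -0.30 to 0.13). Glrx5, a mitochondrial glutaredoxin of iron-sulfur cluster assembly, had 3171, 3828 and 3285 in KO and 3974, 4201 and 3758 in WT, with KO replicate 2 above WT replicate 3 (-0.22, -0.44 to 0.00, adjusted p = 0.289). Glrx3, which also takes part in iron handling, had 234, 261 and 277 in KO and 276, 221 and 267 in WT (0.02, -0.28 to 0.32). It shares 23.7% of its windows with Gm12669. Glrx2, the mitochondrial and nuclear form, had 18.9, 18.0 and 35.1 in KO and 25.5, 27.0 and 29.5 in WT (-0.24, -0.95 to 0.46).

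On the NRF2 axis, 4 of 5 members had a log2 fold change above 0, and none passed the test. Of all genes tested, 51.3% lay below 0. Nfe2l2 had 178, 265 and 332 normalized counts in KO and 220, 234 and 201 in WT, so the KO libraries spanned the WT values on both sides (0.20, -0.20 to 0.59, and -0.01 without KO replicate 3). Keap1, the sensor that holds NRF2 back, had 34.7, 22.2 and 30.6 in KO and 25.5, 23.2 and 14.8 in WT (0.45, -0.25 to 1.16). Nqo1, a quinone reductase long used as an NRF2 target, had 98.7, 98.3 and 109 in KO and 71.0, 85.6 and 83.1 in WT. Every KO library was above every WT library, and the log2 fold change was 0.35 (SE 0.18, -0.04 to 0.74, adjusted p = 0.336). Hmox2, the constitutive haem oxygenase, had 856, 960 and 1138 in KO and 861, 920 and 905 in WT (0.13, -0.12 to 0.38), and it overlaps Cdip1, with 44.8% of windows in common. Hmox1, the inducible form, had 1, 5 and 3 reads in KO and 9, 0 and 5 in WT (-0.12, and 0.61 without WT replicate 1). Among NRF2 targets of the other classes, Gclc (0.71) and Gclm (0.07) lay above 0, and Srxn1 was not tested. Prdx1 (-0.20), Txnrd1 (-0.32), Txn1 (-0.17), Gsr (-0.44), Gstp1 (-0.15) and Gstm1 (-1.27) lay below 0. Without WT replicate 1, Gsr was at -0.05, Gstp1 at 0.10 and Gstm1 at 0.32.

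Other genes of the same pathways were called at a rate near that of all genes. In a list of 178 related genes in 10 classes, 165 were in the table and 153 were tested. Of these, 3 rose and 2 fell in KO, or 3.27%, against 1.87% of all genes called higher and 1.41% called lower (3.28% together). The median of the list was 0.04, and 36 had an unadjusted p under 0.05 (23.5%, against 18% of all genes).

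The largest of these rises was that of Cul3, the scaffold of the ubiquitin ligase that uses KEAP1 as its adaptor for NRF2 and other adaptors for other substrates (chromosome 1, 80264923 to 80340480, minus strand). Cul3 had 402, 330 and 303 normalized counts in KO and 156, 193 and 196 in WT. All KO libraries lay well above all WT libraries. The means were 345 ± 51.4 in KO and 182 ± 22.1 in WT (SD, n = 3 each), and the rise was 0.92 on the log2 scale (SE 0.15, adjusted p = 0.00572 in limma). Its adjusted p stayed between 0.00543 and 0.0279 when 1 library was left out. Sirt1, a deacetylase that acts on FOXO factors (chromosome 10, 63319005 to 63381704, minus strand), had 203, 187 and 261 in KO and 126, 133 and 138 in WT. It rose by 0.69 (SE 0.16, adjusted p = 0.0288), without overlap of the groups, and its adjusted p reached 0.104 without KO replicate 3. Sirt1 overlaps exons of Gm16145 on the other strand, which had 1 to 2 reads a library. Gstt2, a theta class glutathione transferase (chromosome 10, 75831114 to 75837424, minus strand), had 723, 808 and 872 in KO and 517, 620 and 501 in WT. It rose by 0.55 (SE 0.12, adjusted p = 0.0231), and its adjusted p reached 0.121 without WT replicate 3.

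The falls were those of Tiparp and Gstm5. Tiparp, an ADP-ribosyltransferase induced through the aryl hydrocarbon receptor (chromosome 3, 65528410 to 65555518, plus strand), had 3648, 3739 and 3185 normalized counts in KO and 4519, 4424 and 5445 in WT. The fall was -0.44 on the log2 scale (SE 0.11, adjusted p = 0.0397), and its adjusted p reached 0.182 without WT replicate 3. Gstm5, a mu class transferase (chromosome 3, 107895821 to 107898686, plus strand), had 2596, 3312 and 2793 in KO and 4358, 3712 and 3650 in WT. It fell by 0.43 (SE 0.11, adjusted p = 0.0487), and its adjusted p reached 0.203 without WT replicate 1. Both calls ended when the replicate number was added as a block (adjusted p = 0.0807 and 0.0873). Tiparp and Gstm5 overlap exons of 4931440P22Rik and 4933431E20Rik on the other strand, with 3.64% and 9.76% of their windows shared. Reads of such partners cannot be told apart here. Of the related list, edgeR also called Selenot and Ugdh higher in KO, and DESeq2 called Selenot higher and Selenow and Btrc lower. Of 122 related genes tested, edgeR called 5 higher and 2 lower, and of 112 tested, DESeq2 called 4 higher and 4 lower. Over all genes that they tested, edgeR called 6.03% and DESeq2 7.79%. In the 6 classes without a call in limma, the smallest limma adjusted p-values were those of Selenot (0.0563, log2 fold change 0.58), Pgls (0.0995, -0.76), Nxn (0.115, 0.50), Pdia4 (0.133, -0.40), Chac1 (0.458, 0.67) and Gpx6 (0.933, 0.04).

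**Figure D4:**
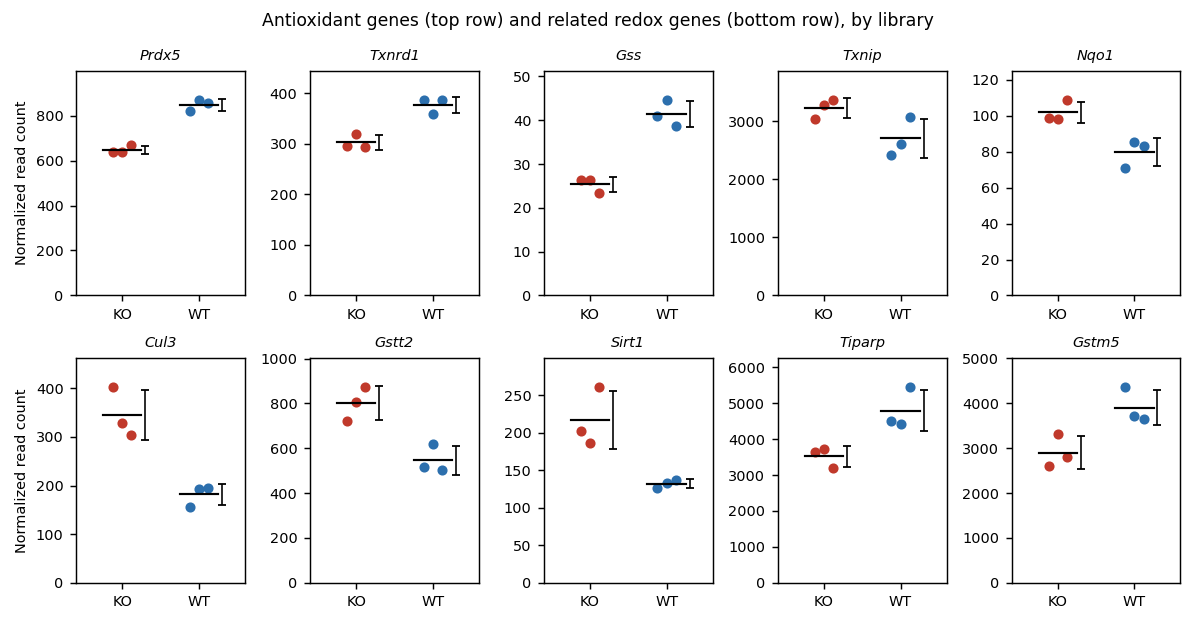
Normalized read counts (y axes, from 0) of 5 members (top row) and the 5 related genes that passed the test (bottom row) in KO (left) and WT (right) libraries; points are libraries, lines are means and bars are SDs (n = 3 each). Prdx5 sits at 637 to 667 in KO and 818 to 869 in WT, and Cul3 at 303 to 402 in KO and 156 to 196 in WT.

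**Figure D5:**
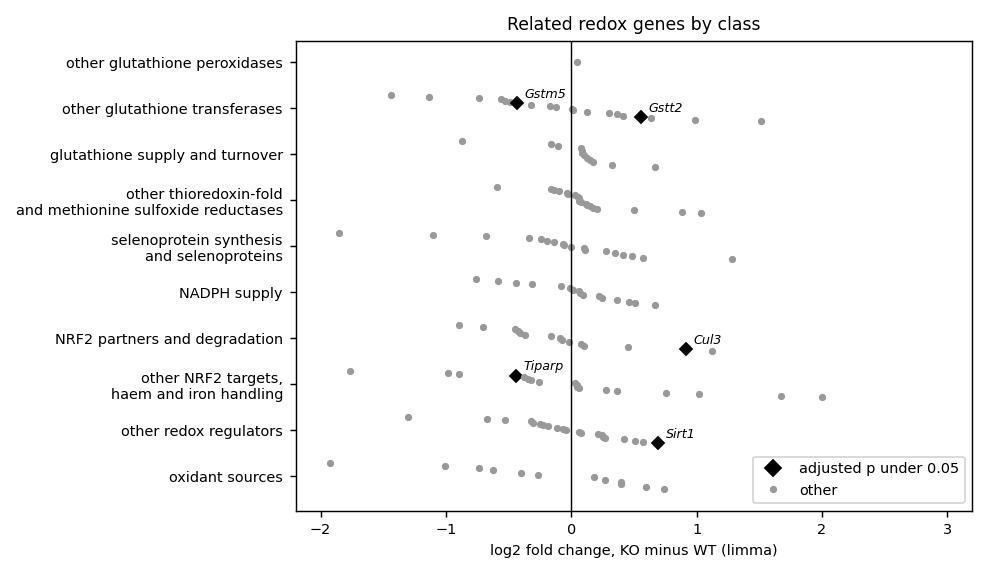
Log2 fold change, KO minus WT (x axis), of the 153 tested related genes in 10 classes (rows); diamonds mark the 5 genes with an adjusted p under 0.05. Cul3, Sirt1 and Gstt2 lie above 0, Tiparp and Gstm5 below 0, and most other genes lie around 0.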

How the data were processed

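RNA of 5 pooled oocytes per library was amplified by Smart-Seq2, built into Nextera XT libraries and sequenced in read pairs, per the labels' protocols. Of tools, the submitters' processing notes name STAR, cutadapt, FastQC, DESeq2 and DESeq, and as builds mm10 and GRCm38. No source used here gives their versions or the annotation. The deposited table holds a signal, normalized read counts, which per the file headers come from Partek and DESeq2. Dividing each column by the value of 1 read gave whole reads for 100% of values above 0 (tolerance 0.1 reads).

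Genes reaching 1 in any 3 libraries were compared as log2(value + 1) between 3 KO and 3 WT libraries with limma-trend (limma 3.58.1, R 4.3.3), adjusted by Benjamini-Hochberg over all 18762 genes at a threshold of 0.05. Fold changes on this scale understate those of low genes. Alternatives were edgeR 4.0.16 and DESeq2 1.42.0 on recovered reads, other pseudocounts, filters and scalings, a replicate block, removal of GC and length trends, and leaving out each library. The fits were tested on simulated data. Levels per kb used merged exons of GENCODE M21, which matched 95.5% of symbols. Positions run from the deposited start to the deposited stop minus 1 base. Shared windows are 75-base windows of the longest transcript that match another gene with at most 1 mismatch (minimap2 2.31-r1302). The rule for values in every library took members past the threshold or with an unadjusted p under 0.05, the highest per kb of each class and those under 10 reads; the other members' values were added after they were seen. Of the related list, genes past the threshold and the gene of smallest p in classes without a call are named. The members and all lists were chosen with earlier results of these data known. Of the marker lists kept for other cells, the immune list (8 of 10 in the table) summed to 468 to 603 in KO and 370 to 452 in WT, of which C1qb alone made 453 to 592 in KO and 331 to 430 in WT, while the sum of the others was lower in every KO library than in any WT library. The endothelial list (7 of 8) summed to 201 to 281 in KO and 242 to 292 in WT, and the red blood cell list (1 of 6) to 0 in KO and at most 0.923 in WT.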

Additional observations from a re-analysis of the deposited data

How the results depend on the processing

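Same-numbered KO and WT libraries did not deviate together (correlations of -0.08, -0.02 and -0.04 over all genes tested). These correlations cannot show whether same-numbered pools were collected or prepared together. With a replicate block 246 genes were called higher and 175 lower, and 3 related genes higher and 0 lower. The count of members called lower was 1 with edgeR, with DESeq2 and with a mean of at least 10 normalized counts, and 0 to 1 when a library was left out. All genes called lower were 338 of 13078 with edgeR, 401 of 11098 with DESeq2 and 335 of 12975 with a mean of at least 10. When a library was left out, 71 to 459 genes were called higher and 41 to 430 lower, and 1 to 8 related genes higher and 0 to 3 lower. Related genes called higher were 5 with edgeR and with the mean of at least 10. In these settings 451 of 13078 and 435 of 12975 genes were called higher. Related genes called lower were 4 with DESeq2 and 1 with a pseudocount of 0.5, TMM scaling or upper quartile scaling. In these last 3 settings 236, 250 and 249 of 18762 genes were called lower. The members' median was -0.18 to -0.036 when a library was left out.

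Of 557 member values under the alternatives that had an adjusted p, 28 had the opposite sign, in 13 members. All 28 had adjusted p-values over the threshold in both settings, and 4 other values (Prdx5) passed it. Values without an adjusted p were not counted, among them Cat at -0.047 in DESeq2, beside 0.05 in the main fit. With GC and length trends removed, Sod1 was 0.12, Prdx6 -0.023, Gclm -0.073 and Glrx3 -0.069. With a pseudocount of 0.5, Hmox1 was 0.032. Leaving out a library gave Sod1 -0.059 to 0.063, Cat -0.64 to 0.58, Prdx3 -0.28 to 0.023, Prdx6 -0.16 to 0.19, Txnrd2 -0.017 to 0.59, Gpx3 -0.85 to 0.070, Gpx7 -0.15 to 0.19, Gclm -0.019 to 0.13, Glrx3 -0.080 to 0.084, Gstp1 -0.36 to 0.10, Gstm1 -2.85 to 0.32, Nfe2l2 -0.0065 to 0.44 and Hmox1 -1.12 to 0.61. The cause was not tested. Depth limits the 6 members under 10 reads a library, and amplified reads are not independent molecules.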
